A study of Mus musculus with 6 samples.

Results

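Genes that copy, package and transcribe mitochondrial DNA or degrade its RNA were followed in DN3 thymocytes with and without intact Hspa9: Tfam, Polg, Polg2, Twnk, Ssbp1, Tfb1m, Tfb2m, Polrmt, Pnpt1 and Supv3l1. These 10 members were chosen by name for their function and not by their values, though earlier results of these data were known. All 10 were among the 8922 genes tested, of 11826 genes with a level. DN3 thymocytes are early T cell precursors that lack CD4, CD8 and CD44, carry CD25 and rearrange the T cell receptor beta locus. They were sorted by those markers from untreated mice 5 weeks old, and RNA sequencing was done on 3 libraries from Hspa9 cKO mice and 3 libraries from WT mice. Hspa9 encodes GRP75, the HSP70 chaperone of the mitochondrial matrix, and the study asked what this protein does in early thymocytes. The sources used here give neither the Cre line, nor the strain, nor the animals behind each library. The p-values below thus rest on the spread between libraries of a group, and that spread may be technical.

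The label held at the level of Hspa9 exons. The event that keeps 3 internal Hspa9 exons averaged 22.3 ± 4.78 FPKM in Hspa9 cKO libraries and 106.3 ± 2.25 FPKM in WT libraries (SD, n = 3 each). The event that joins the exons on either side of them had 76.9, 89.4 and 68.9 FPKM in Hspa9 cKO libraries, against 12.3 and 17.0 FPKM in WT replicates 2 and 3 and no listing (set to 0) in WT replicate 1. The summed level of all Hspa9 transcripts hardly differed, at 117.2, 123.5 and 109.7 FPKM in Hspa9 cKO libraries and 105.4, 121.2 and 121.7 FPKM in WT libraries (log2 change 0.01 ± 0.09 SE, adjusted p = 0.952, limma; -0.06 after rescaling by trimmed means and without WT replicate 1, -0.03 without Hspa9 cKO replicate 2). FPKM is a read count scaled to transcript length and library size, and a gene's level here is the summed FPKM of its transcript starts. All log2 changes are differences of log2(FPKM + 1), Hspa9 cKO minus WT, from limma with Benjamini-Hochberg adjustment over all tested genes, and a gene is called at an adjusted p under 0.05.

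Mammalian mitochondria keep a small circular genome, packed into nucleoids by TFAM, that is copied by a dedicated replisome. In that replisome POLG is the catalytic DNA polymerase, POLG2 its accessory subunit, Twinkle (Twnk) the helicase and SSBP1 the protein that coats single strands. Transcription needs the RNA polymerase POLRMT with TFAM and TFB2M, while TFB1M methylates the ribosomal RNA of the small mitochondrial subunit. The RNA is removed by a complex of the exonuclease PNPT1 and the helicase SUPV3L1, and loss of this complex is known to let mitochondrial double-stranded RNA build up in human cells. All 10 proteins are encoded in the nucleus and imported into mitochondria. The tables list only 2 events on the mitochondrial chromosome, so neither the mitochondrial transcripts nor the number of mitochondrial genomes was measured.

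Promoter sequences are shown for 3 genes: Twnk and Polrmt because their transcripts began at several places in these libraries, and Tfam because its promoter holds an ETS motif like that of Twnk. Each window runs from 250 bases before to 50 bases after the start annotated by RefSeq on GRCm38.p6 (mm10), is printed 5′ to 3′ on the gene's strand, and has motif matches in capitals. The windows are chr19:45005413-45005712 and chr19:45006308-45006607 on the plus strand for Twnk, and chr10:71237995-71238294 and chr10:79746532-79746831 on the minus strand for Tfam and Polrmt.
Twnk upstream start: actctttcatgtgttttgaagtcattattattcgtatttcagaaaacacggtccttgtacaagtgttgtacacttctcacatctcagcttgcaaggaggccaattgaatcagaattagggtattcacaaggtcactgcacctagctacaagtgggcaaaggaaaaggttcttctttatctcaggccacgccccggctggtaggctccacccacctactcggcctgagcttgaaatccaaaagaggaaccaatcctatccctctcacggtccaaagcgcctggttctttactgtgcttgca
Twnk downstream start: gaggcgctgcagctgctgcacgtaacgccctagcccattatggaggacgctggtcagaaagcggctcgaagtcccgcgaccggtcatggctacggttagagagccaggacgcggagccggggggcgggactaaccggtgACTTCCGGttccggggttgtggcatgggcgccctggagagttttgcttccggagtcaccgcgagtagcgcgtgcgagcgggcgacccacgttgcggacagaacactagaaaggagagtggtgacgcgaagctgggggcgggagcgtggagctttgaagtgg
Tfam start: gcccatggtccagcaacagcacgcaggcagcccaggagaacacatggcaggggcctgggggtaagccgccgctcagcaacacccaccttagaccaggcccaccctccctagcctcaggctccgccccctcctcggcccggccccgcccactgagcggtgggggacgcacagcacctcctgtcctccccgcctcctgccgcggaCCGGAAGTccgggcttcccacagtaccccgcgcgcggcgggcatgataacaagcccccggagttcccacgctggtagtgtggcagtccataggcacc
Polrmt start: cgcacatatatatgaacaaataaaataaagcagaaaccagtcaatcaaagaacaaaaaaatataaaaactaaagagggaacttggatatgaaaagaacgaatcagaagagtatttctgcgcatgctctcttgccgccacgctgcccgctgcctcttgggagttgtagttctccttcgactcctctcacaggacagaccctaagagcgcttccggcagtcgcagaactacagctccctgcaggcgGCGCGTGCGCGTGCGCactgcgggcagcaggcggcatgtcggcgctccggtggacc
The ETS motif CCGGAAGT, bound by GABP and other ETS factors, was found in 3 of the 11 windows of the 10 genes, those of Tfam at position -47 relative to the start, Polg at -38 and the downstream Twnk start at -111, the last on the opposite strand. It was present in 3.89% of 32851 RefSeq windows of the same length. The window of the downstream Twnk start also holds the start of Mrpl43 (chr19:45004829-45006442, minus strand), so its ETS match cannot be assigned to either gene by position alone. The NRF1 motif GCGCA-N-GCGC, searched on both strands like the other motifs, was found in 1 window, that of Polrmt, as overlapping matches in one capital run, and in 4.60% of all windows. The interferon-stimulated response element GAAA-NN-GAAA was found in 0 of the 11 windows and in 3.44% of all windows. The match of letters is a description of the sequence and shows no binding.

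None of the 10 genes was called in either direction, against 14.1% of all tested genes (744 higher, 8.34%, and 518 lower, 5.81%). At an unadjusted p under 0.05 there was 1 member, Tfb1m, against 31.3% of all tested genes. Of the log2 changes, 5 lay above zero and 5 below, with a median of 0.02, beside 0.06 over all tested genes. The median absolute log2 change was 0.15 over the 10 genes and 0.24 over all tested genes. The groups did not overlap for 2 members, Tfb1m and Pnpt1, against 39.2% of all tested genes. The 95% confidence interval of the log2 change lay within ±0.5 for 3 members, Tfam, Twnk and Pnpt1, and within ±1 for all 10. These intervals, which are not adjusted for the number of genes, held 0 for every member but Tfb1m (0.05 to 0.62). Calls over all genes depended on the libraries and on scaling: leaving out any 1 of the 6 libraries gave 275 to 491 higher and 210 to 331 lower, and rescaling by trimmed means of log ratios gave 575 higher and 698 lower.

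**Figure D1:**
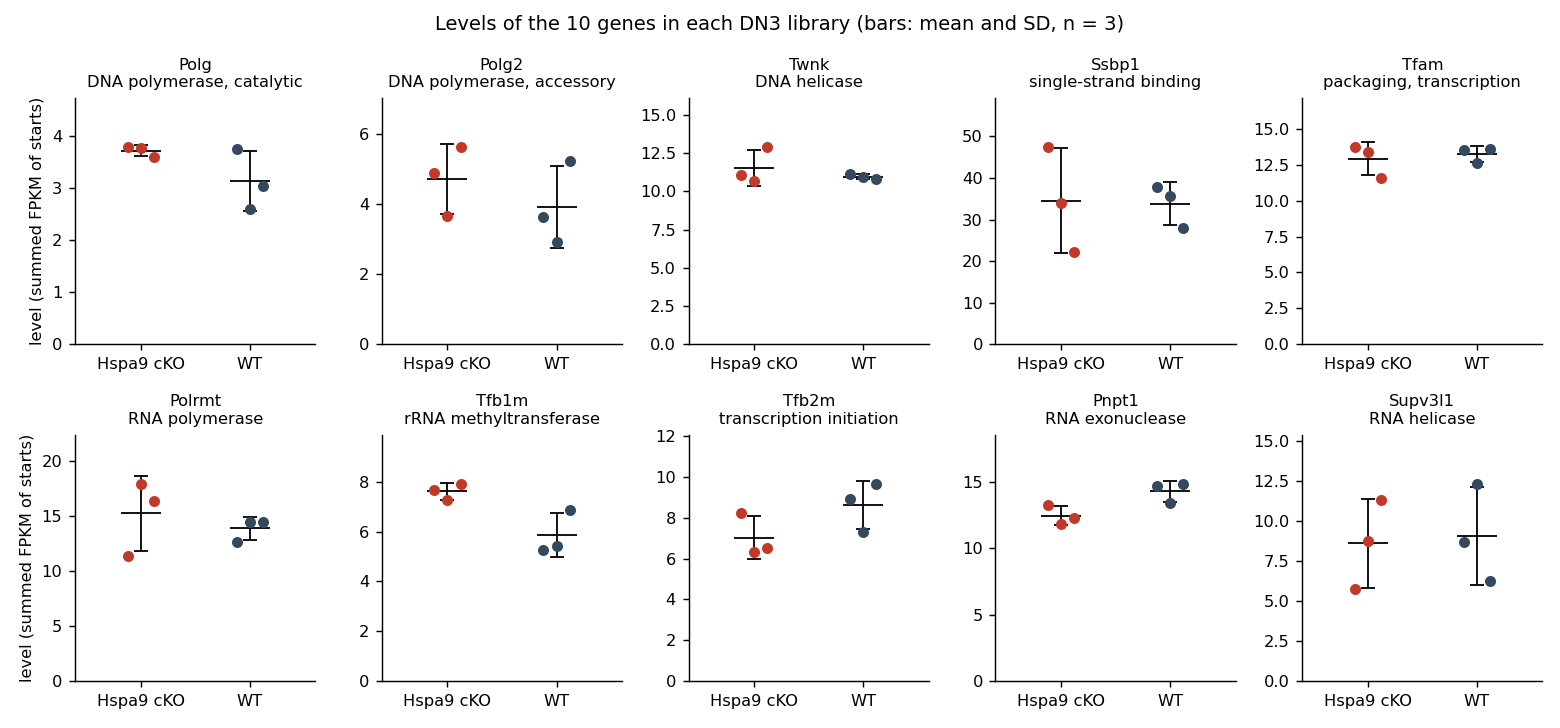
Level of each of the 10 genes (vertical axis, summed FPKM of transcript starts, from 0) in the 3 Hspa9 cKO libraries and the 3 WT libraries. Points are libraries, and bars are the mean and SD. The groups are apart only for Tfb1m, where Hspa9 cKO points sit at 7.25 to 7.92 FPKM against 5.28 to 6.88 FPKM in WT, and for Pnpt1, where they sit at 11.8 to 13.2 FPKM against 13.4 to 14.9 FPKM in WT.

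Levels of the 10 genes, which FPKM allows to be set side by side per length, spanned 3.42 to 34.2 FPKM in their means. Ssbp1 was highest at a mean of 34.2 FPKM over the 6 libraries, followed by Polrmt at 14.5, Pnpt1 at 13.4, Tfam at 13.1, Twnk at 11.3, Supv3l1 at 8.83, Tfb2m at 7.83, Tfb1m at 6.74, Polg2 at 4.31 and Polg at 3.42 FPKM. Only Ssbp1 was separated from its neighbour in this order, with 22.1 to 47.4 FPKM against 11.4 to 17.9 FPKM for Polrmt. Every other neighbouring pair overlapped between libraries. The place of Supv3l1 depends on the event read: its distal end averaged 13.3 FPKM in Hspa9 cKO libraries and 12.9 FPKM in WT libraries, close to the level of Tfam. So does the place of Polrmt, whose end averaged 10.3 FPKM in Hspa9 cKO libraries and 11.9 FPKM in WT libraries, close to the level of Twnk. Among all tested genes, the mean log2 level of Ssbp1 was at or above that of 85.8%, and the level of Polg at or above that of 19.7%.

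The catalytic polymerase Polg had 3.78, 3.76 and 3.59 FPKM in Hspa9 cKO libraries, against 3.75, 2.60 and 3.03 FPKM in WT libraries. One WT library reached the range of the Hspa9 cKO libraries, so the groups overlapped. The log2 change was 0.20 ± 0.13 (SE, 95% CI -0.12 to 0.52) with an adjusted p of 0.353 (limma), and by transcript ends it was 0.01. Polg lies at chr7:79446231-79466362 on the minus strand (mm10) and overlaps Fanci, a gene of DNA crosslink repair, on the opposite strand at its 3′ end. Its main start was the only one listed in 1 library of each group, and it took 95.6% and 96.0% of the starts in the other Hspa9 cKO libraries and 89.5% and 94.8% in the other WT libraries. One intron, chr7:79452028-79452107, was retained at 3.83, 0.0205 and 0.278 FPKM in Hspa9 cKO libraries and at 0.0265, 0.164 and 2.75 FPKM in WT libraries. Its retention was thus high in 1 library of each group.

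The accessory subunit gene Polg2 (chr11:106768253-106779537, minus strand) had 4.88, 3.64 and 5.62 FPKM in Hspa9 cKO libraries and 3.63, 2.90 and 5.21 FPKM in WT libraries. The groups overlapped, with a log2 change of 0.23 ± 0.22 (SE, 95% CI -0.30 to 0.76) and an adjusted p of 0.522. The level joins 2 main starts that lie close together. The outer start, which belongs to transcripts annotated as targets of nonsense-mediated decay, had 3.24, 3.61 and 3.41 FPKM in Hspa9 cKO libraries, against 2.91, 1.55 and 2.43 FPKM in WT libraries. Every Hspa9 cKO library was above every WT library there, but the start was not called among events (log2 change 0.45 ± 0.21 SE, adjusted p = 0.303). Groups did not overlap for 39.2% of all tested genes, and over all events that share was not counted. The inner start, that of the principal coding transcript, had 1.64, 0.00409 and 2.20 FPKM in Hspa9 cKO libraries and 0.572, 1.36 and 2.78 FPKM in WT libraries. It was close to 0 in 1 Hspa9 cKO library and overlapped between the groups. An event that skips the exon at chr11:106778717-106778807 had 3.13, 3.42 and 3.41 FPKM in Hspa9 cKO libraries and 2.91, 1.41 and 1.24 FPKM in WT libraries (log2 change 0.64 ± 0.26 SE, adjusted p = 0.238).

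The helicase gene Twnk had 11.1, 10.7 and 12.9 FPKM in Hspa9 cKO libraries and 11.1, 10.9 and 10.8 FPKM in WT libraries. The WT values lay within the range of the Hspa9 cKO values. The log2 change was 0.06 ± 0.09 (SE), and its 95% interval corresponds to 0.891-fold to 1.23-fold on the FPKM + 1 scale (adjusted p = 0.684). The log2 change crossed zero, to -0.01 without Hspa9 cKO replicate 3 and to -0.00027 after rescaling by trimmed means. Twnk (chr19:45005663-45012762, plus strand) was read from both starts shown above. The downstream start, that of the principal coding transcript and of the window with the ETS motif, took 86.5%, 82.4% and 83.7% of the starts in Hspa9 cKO libraries and 80.1%, 80.3% and 87.2% in WT libraries. These shares averaged 84.2 ± 2.14% in Hspa9 cKO libraries and 82.5 ± 4.01% in WT libraries (SD, n = 3 each; exact two-sided permutation test, p = 0.6). They join the first exon of the principal transcript with a shorter unannotated one from the same base. The principal first exon alone took 78.4%, 82.4% and 73.9% in Hspa9 cKO libraries. In WT libraries it took 80.1%, 80.3% and 79.1%. The upstream start, whose first exon lies within the opposite-strand gene Mrpl43, had 1.49, 1.88 and 2.11 FPKM in Hspa9 cKO libraries and 2.21, 2.15 and 1.39 FPKM in WT libraries.

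Ssbp1, which encodes the single-strand binding protein, had the largest SD within a group, 12.6 FPKM in Hspa9 cKO libraries. It had 47.4, 33.9 and 22.1 FPKM in Hspa9 cKO libraries and 37.7, 35.7 and 28.0 FPKM in WT libraries, with a log2 change of -0.02 ± 0.28 (SE, 95% CI -0.70 to 0.65) and an adjusted p of 0.965. The sign depended on single libraries: the log2 change was 0.25 without Hspa9 cKO replicate 3, 0.06 without WT replicate 1 and 0.02 without WT replicate 2. All Ssbp1 starts (chr6:40471352-40484700, plus strand) share 1 position and differ in where the first exon ends. The first exon that ends at 40471835 had 29.5 FPKM in Hspa9 cKO replicate 1 and 8.23 FPKM in WT replicate 1 and was listed in no other library. The first exon that ends at 40471825, 10 bases before it, had 14.98, 27.2 and 13.3 FPKM in Hspa9 cKO libraries and 22.8, 29.0 and 20.3 FPKM in WT libraries (log2 change -0.42 ± 0.29 SE, adjusted p = 0.483 among events).

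Tfam, which bends and packs mitochondrial DNA and opens its promoters, had 13.7, 13.4 and 11.6 FPKM in Hspa9 cKO libraries and 13.6, 12.6 and 13.6 FPKM in WT libraries. It averaged 12.9 ± 1.15 FPKM in Hspa9 cKO libraries and 13.3 ± 0.567 FPKM in WT libraries (SD, n = 3 each), and the groups overlapped. The log2 change was -0.04 ± 0.09 (SE), with a 95% interval of 0.833-fold to 1.14-fold and an adjusted p of 0.810. Without Hspa9 cKO replicate 3 it was 0.03. The main first exon, chr10:71237840-71238280, gave 12.3, 11.8 and 11.5 FPKM in Hspa9 cKO libraries. In WT libraries it gave 11.997, 11.7 and 13.4 FPKM (gene at chr10:71225464-71238280, minus strand). This exon begins upstream of the RefSeq start of the window shown above, and the ETS match of that window lies inside it. The main first exon thus carried 87.9% to 98.9% of the level in Hspa9 cKO libraries and 88.5% to 98.5% in WT libraries. A longer first exon from the same base, chr10:71236916-71238280, carried 1.14% to 11.6% in Hspa9 cKO libraries and 0.925% to 6.09% in WT libraries.

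The RNA polymerase gene Polrmt had 11.4, 17.9 and 16.4 FPKM in Hspa9 cKO libraries and 12.7, 14.4 and 14.4 FPKM in WT libraries. The log2 change was 0.11 ± 0.17 (SE, 95% CI -0.31 to 0.53) with an adjusted p of 0.713, and it was -0.02 without Hspa9 cKO replicate 2. The direction depended on which part of the gene was read. The 5′ start at the window shown above had 11.1, 9.80 and 10.8 FPKM in Hspa9 cKO libraries, against 11.8, 11.7 and 13.5 FPKM in WT libraries. All 3 Hspa9 cKO libraries were below all 3 WT libraries at this start, which was not called (log2 change -0.20 ± 0.10 SE, adjusted p = 0.323). How many of all events separate in this way was not counted. An internal start at chr10:79739143-79739374, annotated for a shorter coding transcript, had 0.0702, 7.49 and 4.68 FPKM in Hspa9 cKO libraries and 0.110, 2.50 and 0.669 FPKM in WT libraries. It was near 0 in replicate 1 of both groups, and the groups overlapped. The 5′ start took 97.4%, 54.8% and 66.0% of all starts in Hspa9 cKO libraries and 93.1%, 81.3% and 93.2% in WT libraries (exact two-sided permutation test, p = 0.4, n = 3 each). An alternative exon form at chr10:79738644-79738804 was listed in Hspa9 cKO replicate 2 with 5.51 FPKM and in Hspa9 cKO replicate 3 with 3.84 FPKM, and in no other library.

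**Figure D2:**
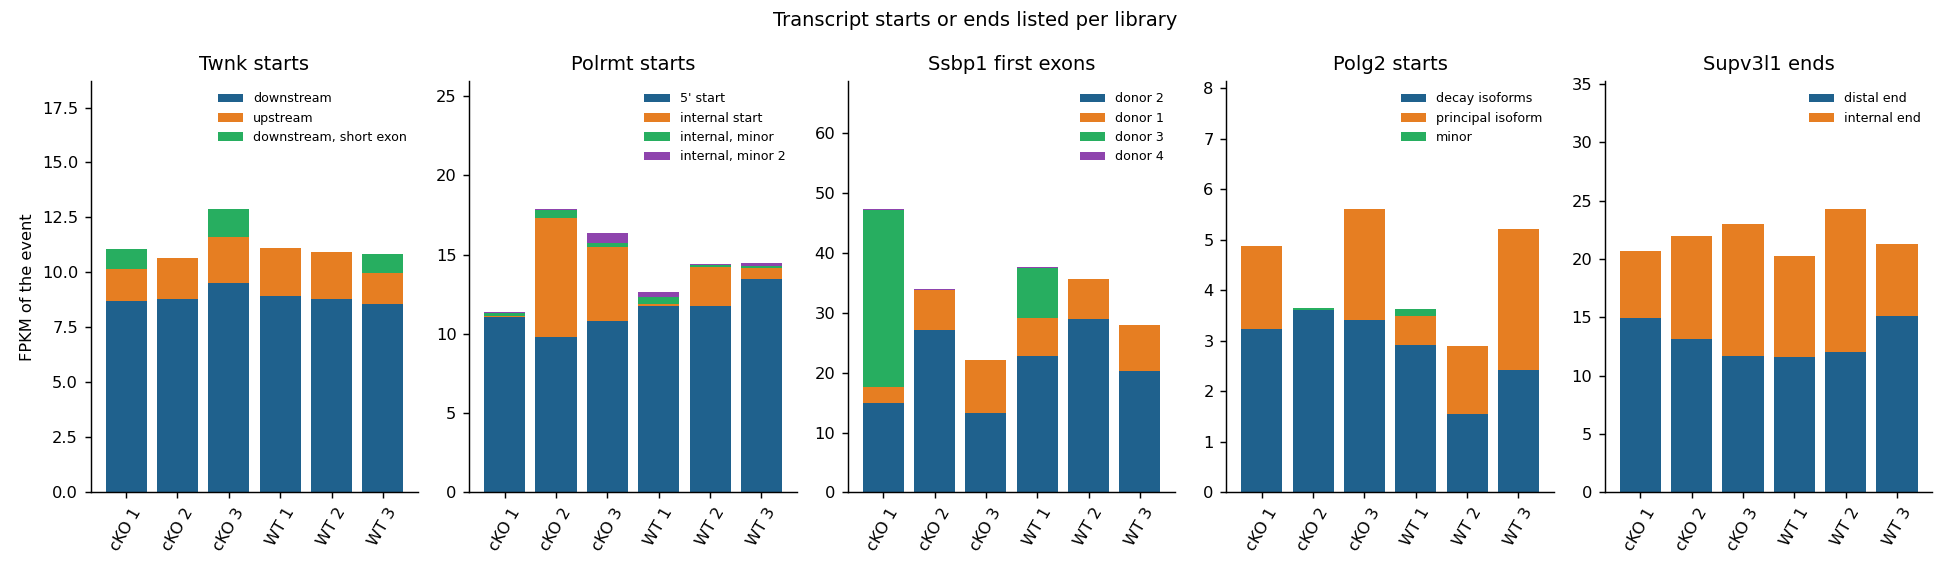
FPKM of single transcript starts (or, for Supv3l1, ends) stacked for each library, with the 3 Hspa9 cKO libraries to the left of the 3 WT libraries. The internal Polrmt start stands out in Hspa9 cKO replicate 2, with 7.49 FPKM, and replicate 3, with 4.68 FPKM, and the third Ssbp1 first exon in replicate 1 of each group.

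Tfb1m, the ribosomal RNA methyltransferase gene, had the largest absolute change of the 10. It had 7.67, 7.25 and 7.92 FPKM in Hspa9 cKO libraries, against 5.28, 5.42 and 6.88 FPKM in WT libraries. All 3 Hspa9 cKO libraries were above all 3 WT libraries, with means of 7.61 ± 0.336 FPKM in Hspa9 cKO libraries and 5.86 ± 0.889 FPKM in WT libraries (SD, n = 3 each). The log2 change of 0.33 ± 0.12 (SE, 95% CI 0.05 to 0.62) missed the threshold, with an unadjusted p of 0.0297 and an adjusted p of 0.117 (limma). The exact two-sided permutation test gave 0.1, the smallest p that 3 against 3 libraries allow. Of all tested genes, 64.7% had an absolute change no larger. The start, end and exon-skipping events of Tfb1m (chr17:3519256-3557781, minus strand) carry the same values, so they are 1 measurement, and the gene overlaps Tiam2 and Cldn20 on the opposite strand. The 5 tested genes with the profiles most like that of Tfb1m over the 6 libraries, by Euclidean distance of mean-centred log2(FPKM + 1), were Ogfod1 (distance 0.0923), Det1 (0.140), Cyb561d2 (0.141), 5830432E09Rik and 1600002K03Rik (0.143).

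Tfb2m, the transcription initiation factor gene, lay on the other side of zero. It had 8.24, 6.35 and 6.52 FPKM in Hspa9 cKO libraries and 8.91, 7.32 and 9.67 FPKM in WT libraries, and 1 Hspa9 cKO library lay within the WT range. The log2 change was -0.26 ± 0.14 (SE, 95% CI -0.61 to 0.09) with an adjusted p of 0.267. By the gene's 2 transcript ends (chr1:179528055-179546267, minus strand) it was 0.13 ± 0.18 (adjusted p = 0.672), so starts and ends disagree in direction. The distal end had 5.36, 4.06 and 5.50 FPKM in Hspa9 cKO libraries and 6.86, 2.46 and 3.63 FPKM in WT libraries, and the WT values enclosed the Hspa9 cKO values.

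Pnpt1, which encodes the exonuclease of the RNA decay complex, had 13.2, 11.8 and 12.3 FPKM in Hspa9 cKO libraries, against 14.7, 13.4 and 14.9 FPKM in WT libraries. All 3 Hspa9 cKO libraries were below all 3 WT libraries, with means of 12.5 ± 0.721 FPKM in Hspa9 cKO libraries and 14.3 ± 0.790 FPKM in WT libraries (SD, n = 3 each). The log2 change was -0.19 ± 0.08 (SE, 95% CI -0.39 to 0.02) with an unadjusted p of 0.0674 and an adjusted p of 0.191, and the exact permutation p was again 0.1. The gene (chr11:29130744-29161828, plus strand) held the event with the smallest adjusted p of all 10 genes. That event, the usual form of the exon at chr11:29138418-29138604, had 10.6, 11.4 and 11.5 FPKM in Hspa9 cKO libraries and 13.5, 13.2 and 13.8 FPKM in WT libraries. It was below all WT libraries in every Hspa9 cKO library and missed the threshold as well (log2 change -0.26 ± 0.08 SE, adjusted p = 0.160). The share of all events that separate in this way was not counted. A longer form of the exon was listed in Hspa9 cKO replicate 1 alone, at 2.22 FPKM.

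Supv3l1, the helicase partner of PNPT1, had 5.75, 8.75 and 11.3 FPKM in Hspa9 cKO libraries and 8.66, 12.3 and 6.22 FPKM in WT libraries. The groups overlapped over nearly their whole range (log2 change -0.07 ± 0.30 SE, 95% CI -0.80 to 0.67, adjusted p = 0.907). The sign turned to 0.17 without Hspa9 cKO replicate 1 and to 0.16 without WT replicate 2. The listed start (chr10:62429209-62449738, minus strand) held the same FPKM, to within 1e-06, as an unannotated internal end at chr10:62446572-62447131 in 6 of 6 libraries. The listed start and this internal end thus hold 1 measurement, apart from the distal end. The level and interval given above for Supv3l1 are those of this listed start and not of the distal end. The distal end, that of the principal transcript, had 14.9, 13.2 and 11.7 FPKM in Hspa9 cKO libraries and 11.6, 12.001 and 15.1 FPKM in WT libraries. Its log2 change was 0.04 ± 0.14 (SE, adjusted p = 0.894 among events), with overlapping groups.

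**Figure D3:**
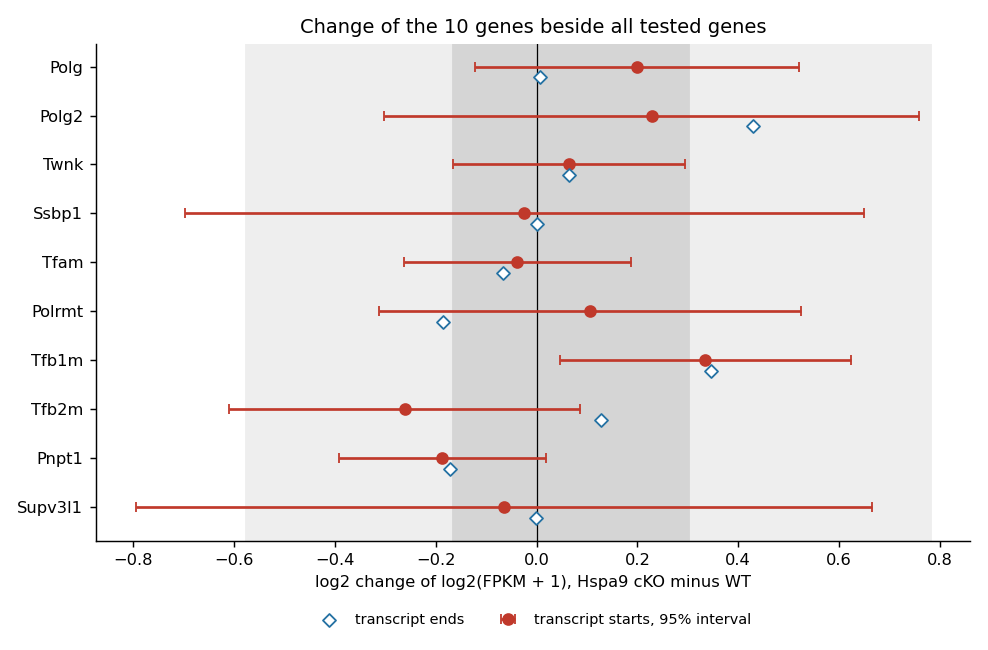
Log2 change of each of the 10 genes (horizontal axis, log2(FPKM + 1), Hspa9 cKO minus WT) by transcript starts with its 95% interval (filled) and by transcript ends (open). Shading spans the 25th to 75th and the 5th to 95th percentiles of all tested genes. Only the Tfb1m interval, 0.05 to 0.62, leaves out zero, and Tfb2m, Polrmt and, close to zero, Ssbp1 differ in sign between starts and ends.

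Across all event types, 204 events of the 10 genes were listed, 117 of them in all 6 libraries, and 104 could be tested. Of these 0 were called, against 4.21% of 57237 events tested over all genes, and 6 had an unadjusted p under 0.05, against 20.9%. The 6 were 3 events of Tfb1m that hold 1 value, 2 events of Pnpt1 that describe 1 exon, and the exon-skipping event of Polg2. The annotation places other genes on the opposite strand of 6 members, and the counting is not stated to use strand. For Polg, Polg2, Twnk, Tfb1m, Tfb2m and Supv3l1, reads from both strands in those stretches may therefore not have been told apart.

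Of 77 tested genes that work beside the 10 members, in 5 lists drawn up from known roles, 7 were higher and 5 lower. That is 15.6% called, near the 14.1% of all tested genes. For genes outside the 10, the first value in parentheses is the log2 change, tested as above. Of 21 other genes of mitochondrial DNA replication, repair and the nucleoid, 19 were tested, 2 were higher, 3 were lower and 14 were not called (median log2 change -0.03, all genes 0.06). Exog, a mitochondrial exonuclease, averaged 4.82 ± 0.163 FPKM in Hspa9 cKO libraries and 3.15 ± 0.155 FPKM in WT libraries (log2 change 0.49, adjusted p = 0.0248). Fbxl4, a regulator of mitophagy mutated in a human mitochondrial DNA depletion syndrome, averaged 5.35 ± 0.408 FPKM in Hspa9 cKO libraries and 3.33 ± 0.530 FPKM in WT libraries (0.56, adjusted p = 0.0400). Endog, the mitochondrial endonuclease G, had 6.97, 8.51 and 6.65 FPKM in Hspa9 cKO libraries, against 12.5, 14.3 and 14.6 FPKM in WT libraries (-0.82, adjusted p = 0.0105). The nucleotide carrier Slc25a4 (-0.37, adjusted p = 0.0143) and the matrix protease Lonp1 (-0.30, adjusted p = 0.0357) fell as well. Mgme1, the nuclease that trims mitochondrial DNA ends, was not called (0.22, adjusted p = 0.526). Leaving out 1 library ended the calls of Fbxl4 and Lonp1 whichever library it was, of Exog for any library but WT replicate 3, and of Slc25a4 for any Hspa9 cKO library, which left 0 or 1 higher and 1 or 2 lower. Without these libraries the adjusted p of Exog was 0.0602 to 0.0826, of Fbxl4 0.0546 to 0.121, of Lonp1 0.0622 to 0.112 and of Slc25a4 0.0516 to 0.0546.

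Nucleotide supply for mitochondrial DNA had 13 tested genes of 15, with 1 higher, 1 lower and a median of -0.09. Slc25a36, a pyrimidine nucleotide carrier of the inner membrane, had 16.5, 13.5 and 15.8 FPKM in Hspa9 cKO libraries, against 7.17, 5.86 and 8.27 FPKM in WT libraries (log2 change 1.01, adjusted p = 0.00963). Rrm2, the S phase subunit of ribonucleotide reductase, had 33.5, 32.8 and 38.9 FPKM in Hspa9 cKO libraries, against 56.9, 57.7 and 67.7 FPKM in WT libraries (-0.78, adjusted p = 0.00903). Both groups were far apart for these genes, and both calls stayed when any 1 library was left out.

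Of 7 further genes of mitochondrial transcription and its termination, 6 were tested, with 1 higher, 1 lower and a median of 0.05. Mterf1b, a paralog of the termination factor gene Mterf1a whose reads may be shared between the copies, averaged 3.05 ± 0.571 FPKM in Hspa9 cKO libraries and 1.61 ± 0.133 FPKM in WT libraries (0.62, adjusted p = 0.0364). Mrpl12, a ribosomal protein that also binds POLRMT, averaged 42.5 ± 1.43 FPKM in Hspa9 cKO libraries and 67.9 ± 9.77 FPKM in WT libraries (-0.65, adjusted p = 0.0182). Tefm, the elongation factor, was not called (0.26, adjusted p = 0.245). The call of Mterf1b was lost without any 1 library (adjusted p 0.0696 to 0.0920) and that of Mrpl12 without any Hspa9 cKO library or WT replicate 1 (0.0569 to 0.0676).

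RNA processing, stability and modification in mitochondria had 32 tested genes of 35, with 2 higher, 0 lower and a median of 0.12. Ngrn, which is needed for the large ribosomal RNA of mitochondria, averaged 23.9 ± 0.785 FPKM in Hspa9 cKO libraries and 15.1 ± 0.833 FPKM in WT libraries (0.63, adjusted p = 0.00657). Rpusd3, a pseudouridine synthase, averaged 3.13 ± 0.790 FPKM in Hspa9 cKO libraries and 1.33 ± 0.315 FPKM in WT libraries (0.82, adjusted p = 0.0374), a call lost without any 1 library (adjusted p 0.0612 to 0.0953). The messenger RNA stabilising pair Lrpprc (-0.08, adjusted p = 0.448) and Slirp (0.06, adjusted p = 0.859), the poly(A) polymerase Mtpap (-0.15, adjusted p = 0.668) and the oligoribonuclease Rexo2, which degrades the short products of PNPT1 (0.07, adjusted p = 0.843), were not called. Without single libraries the signs of Slirp, Mtpap and Rexo2 turned, to -0.05 for Slirp, 0.0048 for Mtpap and -0.02 for Rexo2 without Hspa9 cKO replicate 2 and to -0.09 for Slirp and -0.15 for Rexo2 without WT replicate 1. Of 10 nuclear regulators of mitochondrial biogenesis, 7 were tested, and 1 was called, Gabpb1, the beta subunit of GABP. Gabpb1 averaged 10.9 ± 0.959 FPKM in Hspa9 cKO libraries and 7.65 ± 0.219 FPKM in WT libraries (0.45, adjusted p = 0.0298), and the call was lost without any library but Hspa9 cKO replicate 2 (adjusted p 0.0683 to 0.0960).

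Sensors of mitochondrial nucleic acid and their adaptors, a list already seen to move in these data, had 9 tested genes of 12. Of these, 5 were higher (8.34% over all tested genes) and 1 was lower (5.81%), with a median of 0.87. Several of them detect double-stranded RNA. Ifih1, the receptor MDA5 for long double-stranded RNA, had 8.51, 8.19 and 9.87 FPKM in Hspa9 cKO libraries, against 3.70, 3.88 and 3.07 FPKM in WT libraries (log2 change 1.12, adjusted p = 0.00493). Zbp1, a sensor of left-handed nucleic acid (1.06, adjusted p = 0.00138), Eif2ak2, the double-stranded RNA kinase PKR (0.87, adjusted p = 0.00367), Dhx58, the MDA5 cofactor LGP2 (1.12, adjusted p = 0.00465), and Ddx58, the receptor RIG-I (0.96, adjusted p = 0.0105), rose too. These 5 genes are also induced by interferon in most cells. What raised them here, and any link to Pnpt1 or Supv3l1, was not tested. The DNA sensor gene Cgas was not called (0.07, adjusted p = 0.738), with 2.91, 2.49 and 2.31 FPKM in Hspa9 cKO libraries and 2.31, 2.77 and 2.11 FPKM in WT libraries. Mavs, the mitochondrial adaptor of RIG-I and MDA5, was not called either (-0.04, adjusted p = 0.931). The sign of Mavs turned without Hspa9 cKO replicate 2 or 3 or WT replicate 1 or 3, at 0.06, 0.04, 0.09 and 0.05. Vdac1, the outer membrane pore, fell (-0.58, adjusted p = 0.0481), a call that was lost without any 1 library (adjusted p 0.0518 to 0.116).

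Genes of nuclear DNA replication, taken for comparison with the mitochondrial replisome, were another list already seen to move in these data. Of 20 such genes 18 were tested, with 0 higher, 14 lower (5.81% over all tested genes) and a median of -0.49. Pcna, the sliding clamp, had 224.0, 221.0 and 211.3 FPKM in Hspa9 cKO libraries, against 365.8, 367.2 and 392.4 FPKM in WT libraries (-0.77, adjusted p = 0.00196). Mcm3 (-0.44, adjusted p = 0.00731) and Mcm2 (-0.47, adjusted p = 0.00812) of the replicative helicase and Rpa1 (-0.55, adjusted p = 0.00759), the nuclear counterpart of the single-strand coating protein, also fell. The number called lower was 6 without Hspa9 cKO replicate 2, 7 without Hspa9 cKO replicate 3 or WT replicate 1, 8 without WT replicate 2, 9 without Hspa9 cKO replicate 1 and 11 without WT replicate 3. None of the 4 replisome genes Polg, Polg2, Twnk and Ssbp1 was called, with log2 changes of -0.02 to 0.23, and whether they differ from the nuclear list was not tested.

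**Figure D4:**
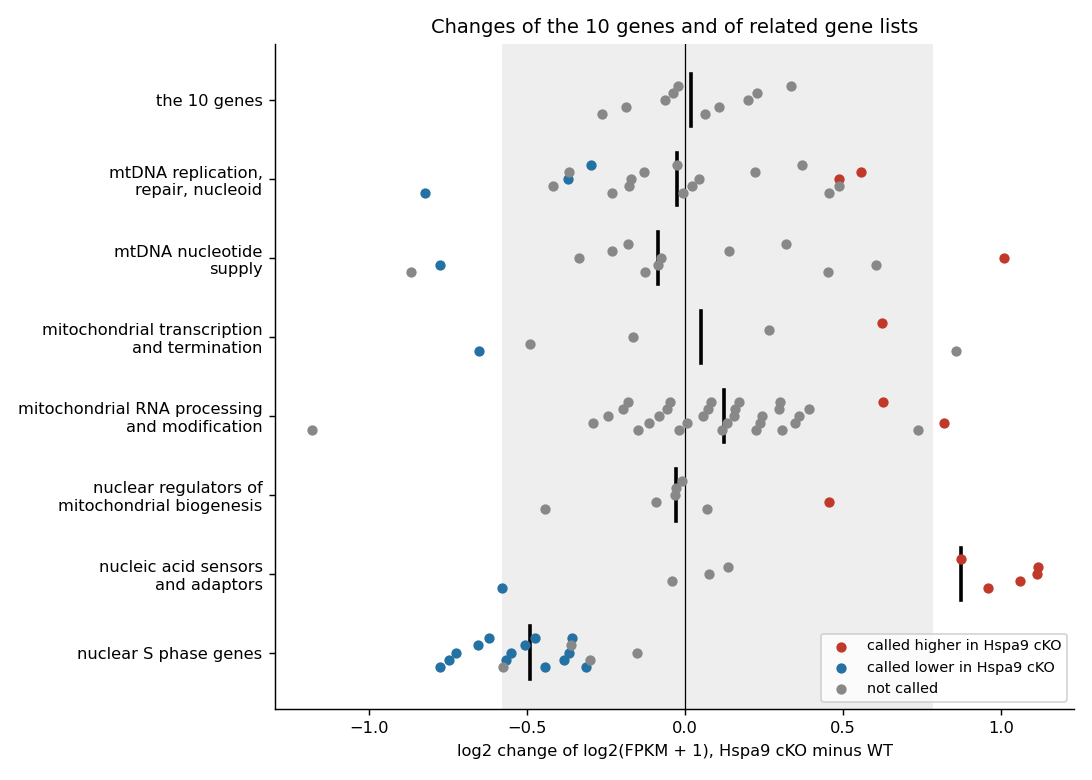
Log2 change (horizontal axis, log2(FPKM + 1), Hspa9 cKO minus WT) of every tested gene in the 10 members and in 7 lists of related genes. Points are genes, bars the list medians, and shading spans the 5th to 95th percentiles of all tested genes. The 10 members sit between -0.26 and 0.33 with none called. Of the nuclear S phase genes 14 of 18 were called lower, and of the sensors and adaptors 5 of 9 higher. Both of those lists had already been seen to move in these data.

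The groups did not overlap in either total of the tables. Summed start FPKM was 248014 to 252474 in Hspa9 cKO libraries and 256513 to 272918 in WT libraries, and the tables list 90561 to 90970 distinct events for Hspa9 cKO and 87403 to 89771 for WT. Correlations of log2 levels between libraries were 0.955 to 0.962 within groups and 0.929 to 0.938 between them. DN3 markers were present, with 6 of 11 tested higher, 1 (Tcf7) lower and a summed level of 2440 to 2660 FPKM in Hspa9 cKO libraries and 1755 to 2017 FPKM in WT libraries. Markers of later thymocytes were low, at a sum of 10.9 to 13.5 FPKM in Hspa9 cKO libraries and 16.7 to 17.8 FPKM in WT libraries, with Cd8b1 lower among 4 tested. Of the markers of B cells, thymic epithelium, and NK and innate lymphoid cells, 1 of 6, 1 of 4 and 2 of 5 had a level. The B cell marker Cd79b was higher (15.3 to 18.3 FPKM in Hspa9 cKO libraries, 9.75 to 12.6 FPKM in WT libraries), while Cd79a, Ms4a1, Pax5 and Ebf1 have no level. Epcam of thymic epithelium was higher as well (36.7 to 43.0 FPKM in Hspa9 cKO libraries, 27.2 to 29.1 FPKM in WT libraries), while Krt5, Krt8 and Foxn1 have no level. Of the NK markers, Nkg7 was higher and Gzma lower, with a sum of 201.3 to 206.5 FPKM in Hspa9 cKO libraries and 200.1 to 219.5 FPKM in WT libraries. Markers of the DN1 and DN2 stages summed to 6.55 to 8.82 FPKM in Hspa9 cKO libraries and 7.22 to 8.42 FPKM in WT libraries. Myeloid markers summed to 13.5 to 15.5 FPKM in Hspa9 cKO libraries and 8.93 to 15.3 FPKM in WT libraries, nearly all of it Lyz2, which was not called. Gamma delta T cell markers summed to 5.34 to 12.8 FPKM in Hspa9 cKO libraries and 3.22 to 15.3 FPKM in WT libraries, and erythroid markers stayed under 1 FPKM. The part of these differences in the changes above was not tested, and in bulk RNA a change in the mix of cells and a change in RNA per cell cannot be told apart.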

How the data were processed

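RNA sequencing tables of 3 Hspa9 cKO and 3 WT libraries were used, grouped by their titles. Per the labels' protocols, poly(A) selection or ribosomal RNA removal (both are named) preceded random-primed cDNA synthesis. The submitters' processing notes name cutadapt 1.9.1, a read trimmer, and the mm10 build. Of the aligner, assembler, event caller and annotation, none is named (not given in the sources used here). What the authors deposited, per the file headers, is an FPKM estimate for every event of transcript structure, such as a start, an end or a skipped exon. The tables hold no counts, so depth is unknown. Unlisted events were set to 0, which can be a failed estimate.

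Levels of genes were sums of FPKM over start events (end events for genes with none listed) that lie on the annotated gene (GENCODE M21). Of 26726 start events, 90.4% did. Starts gave 11305 levels and ends 521. Levels of at least 1 FPKM in at least 3 libraries were tested as log2(FPKM + 1) with limma 3.58.1 (R 4.3.3, trended and robust variances, two-sided, Benjamini-Hochberg over 8922 genes, threshold 0.05), and events likewise over 57237 events. The design foresaw a count test had the tables held counts. In simulated data with 200 of 8922 genes changed, 19.4% of changes of 0.5 on the log2 scale, 70.1% of 1 and 95.5% of 2 were recovered, with 5 false calls among 128. Fewer genes were changed there than the 1262 called in the data, so these rates may not hold for the data. The labels give no pairing by replicate number, and the main fit used none.

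The members, the lists of related genes and the alternatives were chosen with earlier results of these data known, and the S phase and sensor lists had already been seen to move. Named genes were the 10 members, Hspa9, per list at most 4 called genes in each direction by adjusted p, and 8 more whatever their call (Lrpprc, Slirp, Mgme1, Tefm, Mtpap, Rexo2, Ifih1 and Mavs). Ddx58, Cgas, the Polg intron and the single starts, ends and exons were named after their values were seen. Of 182 listed symbols, 180 were matched to an identifier. Alternatives were 16 planned settings (replicate block, filters, pseudocount, 2 rescalings, ends, position rules, other variance model, each library left out) and 1 added after seeing the data (highest single start). Promoters came from RefSeq (GRCm38.p6), matched by symbol for 10 of 10 genes.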

Additional observations from a re-analysis of the deposited data

How the results depend on the processing

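Of the members tested, 0 were called higher and 0 lower under each of 17 alternatives (16 for Polg and Polg2, which the filter of 5 FPKM leaves out), and the smallest adjusted p was 0.0599, for Tfb1m without WT replicate 3. Polg, Polg2, Tfb1m and Pnpt1 kept their direction in all of these, with ranges of 0.01 to 0.31, 0.08 to 0.45, 0.27 to 0.44 and -0.25 to -0.15. Other signs turned, none with a call. By transcript ends the log2 changes were 0.00086 for Ssbp1, 0.13 for Tfb2m, -0.18 for Polrmt and 0.17 for Mtpap, and by the highest single start Polrmt was -0.20. Rescaling by trimmed means gave -0.00027 for Twnk, -0.059 for Hspa9 and -0.0051 for Slirp, and by median ratios -0.048 for Hspa9. Leaving out 1 library gave ranges with both signs: -0.081 to 0.031 for Tfam, -0.012 to 0.11 for Twnk, -0.28 to 0.25 for Ssbp1, -0.015 to 0.29 for Polrmt, -0.28 to 0.17 for Supv3l1, -0.057 to 0.054 for Hspa9, -0.089 to 0.18 for Slirp, -0.32 to 0.0048 for Mtpap, -0.15 to 0.20 for Rexo2 and -0.26 to 0.090 for Mavs; the cause was not tested. Genes called over the whole table numbered 275 to 491 higher and 210 to 331 lower without 1 library, which leaves fewer samples. A replicate block gave 143 higher and 78 lower. Same-numbered libraries did not deviate together over all tested genes (correlations 0.019, -0.029 and -0.028). That check cannot show whether they share a litter or batch, which the labels do not give. Among the named genes, the block ended all calls but those of Slc25a36, Rrm2, Pcna, Zbp1, Eif2ak2 and Dhx58, which held under every alternative that tested them. Rescaling ended the call of Fbxl4 (adjusted p = 0.0519 by trimmed means and 0.0504 by median ratios, limma), and omitting the filter ended those of Rpusd3 (0.0503) and Vdac1 (0.0672). The highest single start ended those of Rpusd3 (0.05002), Mterf1b (0.111), Fbxl4 (0.0545) and Vdac1 (0.0623), and the plain variance model those of Lonp1 (0.0559) and Vdac1 (0.0574). Vdac1 was also lost with a pseudocount of 0.1 (0.0508) and by annotated exon edges (0.0511). With no read counts, no counting error can be given. Intervals of the members reach from -0.80 for Supv3l1 to 0.76 for Polg2 on the log2 scale. The widest interval is that of Supv3l1 by its listed start.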
